A study of Mus musculus with 16 samples.

Results

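The integrated stress response genes described here are 10 genes taken by name: *Atf4*, *Atf3*, *Atf5*, *Ddit3*, *Ddit4*, *Asns*, *Trib3*, *Chac1*, *Psat1* and *Phgdh*. They are ATF4, the main transcription factor of this response, and genes known as its targets, and the rule uses no value measured in the mice. All 10 were found among the 51912 genes listed in the count files, of which 27394 had at least 1 count in any mouse. The study removed *Knl1* (*Casc5*), a kinetochore gene needed for the spindle assembly checkpoint, from mouse cortex and asked how progenitors with damaged genomes respond. UMI RNA-seq, in which reads from 1 tagged cDNA molecule count once, was made from rRNA-depleted RNA of cortices dissected at embryonic day 15.5, with 16 libraries from 15 mice. The 7 ctrl mice were wild type for *Casc5* (2, 6, S1, S3 and T3) or heterozygous (T4 and T5). The 4 cKO mice (5, 7, S2 and F3) were *Casc5* conditional KO with hGFAP-Cre, and the 4 dKO mice (T2, T8, F1 and F7) were *Casc5*/*Trp53* double conditional KO with the same Cre. This Cre acts in cortical progenitors, so cells of other origin in the tissue kept both genes. Whether ctrl mice carried Cre or floxed alleles beyond the *Casc5* genotype is not given in the labels.

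The integrated stress response begins with kinases that phosphorylate the translation factor eIF2 when a cell lacks amino acids, holds unfolded protein in the endoplasmic reticulum, carries double-stranded RNA or lacks heme. General translation then slows, while the ATF4 message is translated more, and ATF4 protein turns on genes for amino acid synthesis, redox balance and, with CHOP, cell death. It is a response separate from p53, the factor that answers DNA damage, and the levels below bear on whether it is seen in RNA when *Knl1* is lost with p53 present (cKO) or absent (dKO). Since ATF4 is set largely by translation, its own mRNA is an incomplete readout and the mRNAs of its targets are the more direct one.

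ATF4 pairs with C/EBP proteins on a composite element, which was searched as TGATGNAA on both strands of the RefSeq promoter windows (GRCm38.p6, from 250 bases before to 50 after each start site). It was found in 4 of the 10 members, *Atf3*, *Asns*, *Trib3* and *Chac1*, against 3.97% of 32851 windows and 4.51% of 27025 genes. The stretches around the match before the RefSeq start site are printed because they show the letters of the element in members whose levels are given below, 5′ to 3′ on the strand of the gene, with the match in capitals.
Asns, chr6:7693214-7693243, minus strand: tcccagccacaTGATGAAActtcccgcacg
Atf3, chr1:191183425-191183454, minus strand: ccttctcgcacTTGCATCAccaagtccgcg
Chac1, chr2:119351038-119351067, plus strand: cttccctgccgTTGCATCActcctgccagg
The *Asns* match lay 23 bases before the RefSeq start site on the strand of the gene, and those of *Atf3* and *Chac1* lay 110 and 193 bases before it on the opposite strand. The *Trib3* match lay 15 bases past the start site and is not printed. RefSeq and GENCODE place the starts differently. Counted from the outermost GENCODE start of each gene, the *Asns* match lay 23 bases and the *Atf3* match 34597 bases inside the gene, and the *Trib3* and *Chac1* matches lay 14 and 180 bases before it. A match is a string of letters and not a measured site, and no binding was measured in these mice.

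Total counts per mouse ran from 399832 to 3266227 in ctrl mice, from 4178461 to 8800987 in cKO mice and from 552186 to 5396803 in dKO mice, so every cKO total lay above every ctrl total. Levels are in CPM, the count of a gene relative to the total count of the mouse, with the totals scaled by TMM over the 15 mice. A count of 3 was worth 0.918 to 7.50 CPM in ctrl, 0.341 to 0.718 CPM in cKO and 0.556 to 5.43 CPM in dKO before TMM scaling, and these floors cover counting error only. The 2 libraries of cKO mouse S2 differed by about sampling noise (chi-square per degree of freedom 1.14 over 13658 genes, against 3.56 to 27.4 for other pairs of cKO libraries) and were summed. All dKO mice were in batch 3 and litters 3 and 4, and the 3 litter 4 mice, F3, F1 and F7, had no ctrl littermate. *Knl1* was at 48.7 to 80.0 CPM in ctrl (median 68.4), at 51.8, 50.5, 80.4 and 50.004 CPM in cKO mice 5, 7, S2 and F3, and at 49.7, 58.2, 58.0 and 33.4 CPM in dKO mice T2, T8, F1 and F7. *Trp53* was at 15.6 to 47.0 CPM in ctrl (median 28.01), 23.97 to 33.3 CPM in cKO and 19.8 to 32.3 CPM in dKO. Both genes overlapped between all groups, and since the counts cover each gene whole, they do not show the deletion of floxed exons in part of the cells. Of the markers that define cortical cells, *Sox2* and *Neurod1* were listed at 0 in all 15 mice, and the other radial glia, neuron and cortex markers were detected in every group. The study stained SOX2 protein in progenitors of this tissue, so a listed 0 does not show that the RNA was absent. Why these genes were listed at 0 was not tested.

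Of the 10 genes, 7 had at least 1 count in every mouse, and *Atf3*, *Trib3* and *Chac1* were under 3 counts in 11, 14 and 11 of the 15 mice. Among the 7, *Atf5* was under 3 counts in 3 mice, *Ddit3* in 1 and *Asns* in 1, all of them with low totals. Per kilobase of exon, so that genes can be set beside each other, the mean level over the 15 mice was highest for *Atf4*, at 13.0 ± 2.76 CPM per kb (SD, n = 15). *Psat1* followed at 8.53 ± 2.05, *Ddit4* at 6.93 ± 1.92, *Phgdh* at 5.56 ± 1.59, *Asns* at 4.42 ± 1.56, *Ddit3* at 4.12 ± 1.92 and *Atf5* at 3.54 ± 1.28 CPM per kb. *Chac1*, *Atf3* and *Trib3* were far lower, at 0.309 ± 0.345, 0.304 ± 0.326 and 0.145 ± 0.240 CPM per kb. *Atf4* lay above *Psat1* in 13 of 15 mice, and *Atf5* lay above *Chac1* in 15 of 15. From *Psat1* down to *Atf5* each gene lay above the next in 8 to 10 of 15 mice, with mean differences below their SD, so those neighbours were not separated by their spread.

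No member passed the test in any of the 3 comparisons. The edgeR likelihood ratio test called 0 of 10 (FDR threshold 0.05) in cKO versus ctrl, where 0.16% of all listed genes were called. It called 0 of 10 in dKO versus ctrl, where 0.0501% were called, and 0 of 10 in cKO versus dKO, where 0.052% were called. At an unadjusted p below 0.05, 1 of 10 members was found in cKO versus ctrl (9.47% of genes with a count) and 1 of 10 in dKO versus ctrl (6.72%), *Atf4* both times, and 0 of 10 in cKO versus dKO (8.22%). The quasi-likelihood test of edgeR called 0 members in each comparison, with 0, 1 and 1 members at an unadjusted p below 0.05. DESeq2 called 0, with 0 members below 0.05 unadjusted, but gave an adjusted p for 7, 0 and 10 of the members in the 3 comparisons. The CPM ranges of every member overlapped between the groups of every comparison, while 1.09%, 0.467% and 2.71% of genes with a count did not overlap. The median log2 fold change over the 10 members was −0.01 in cKO versus ctrl, 0.33 in dKO versus ctrl and −0.10 in cKO versus dKO, beside 0.01, 0.04 and −0.01 over all genes tested. Over the 7 members with a mean of at least 5 CPM it was −0.05, 0.24 and −0.08, beside 0.04, 0.02 and 0.05 over all such genes.

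**Figure D1:**
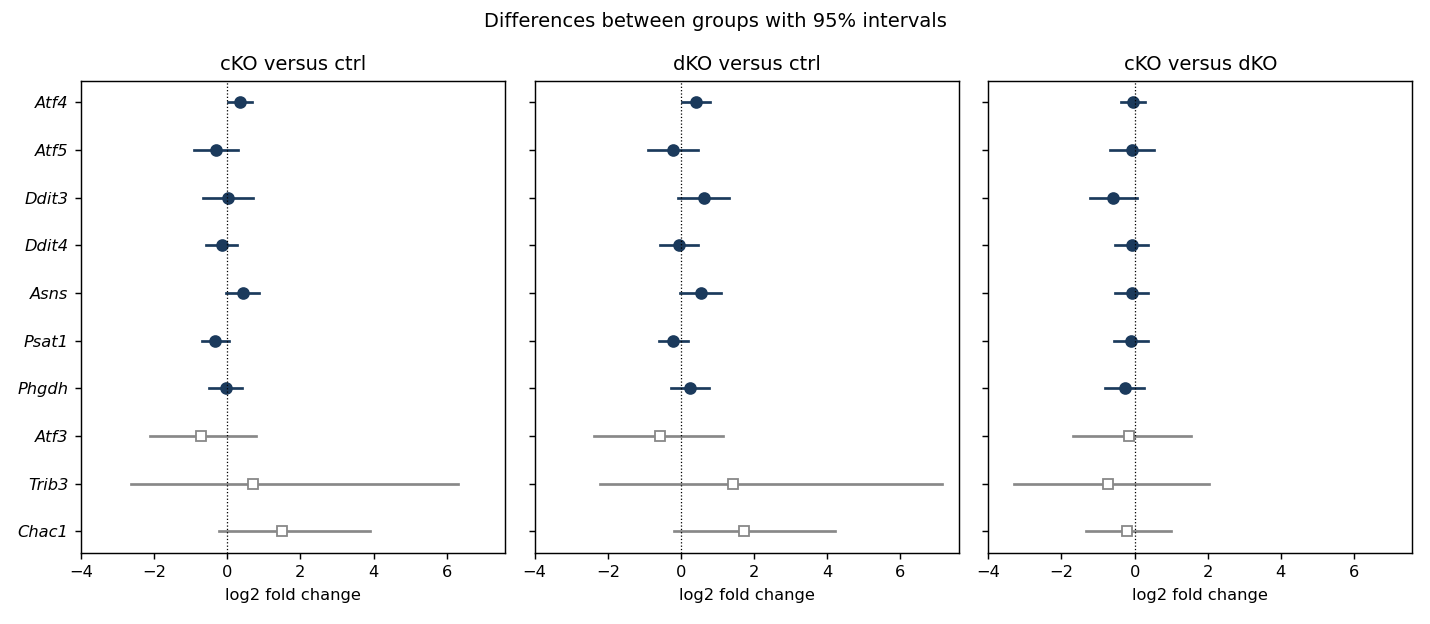
Log2 fold change (x axis) of each member (y axis) in the 3 comparisons, with 95% intervals; filled circles are edgeR estimates for the 7 expressed members and open squares are ratios of pooled counts with exact intervals, which cover counting error only, for Atf3, Trib3 and Chac1. The intervals of the expressed members are narrow beside those of the 3 low genes, and the interval for Atf4 lies above 0 in both comparisons with ctrl before adjustment.

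The size of a change that these data leave possible differed by gene. For the 7 expressed members, the upper ends of the 95% intervals of the log2 fold change lay between 0.04 for *Psat1* and 0.87 for *Asns* in cKO versus ctrl, and between 0.20 for *Psat1* and 1.32 for *Ddit3* in dKO versus ctrl. The lower ends reached down to −0.90 in both comparisons, for *Atf5*. In this fit without covariates, a change beyond 1.82-fold up or 0.536-fold down lay outside the interval of each of the 7 in cKO versus ctrl. Other fits give other limits. With batch as a covariate, the log2 fold change of *Asns* in cKO versus ctrl was 0.59 ± 0.25, beside 0.42 ± 0.23 here. The p-values weigh differences against the spread among these mice, and a p that misses the threshold does not show that the groups had equal levels.

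**Figure D2:**
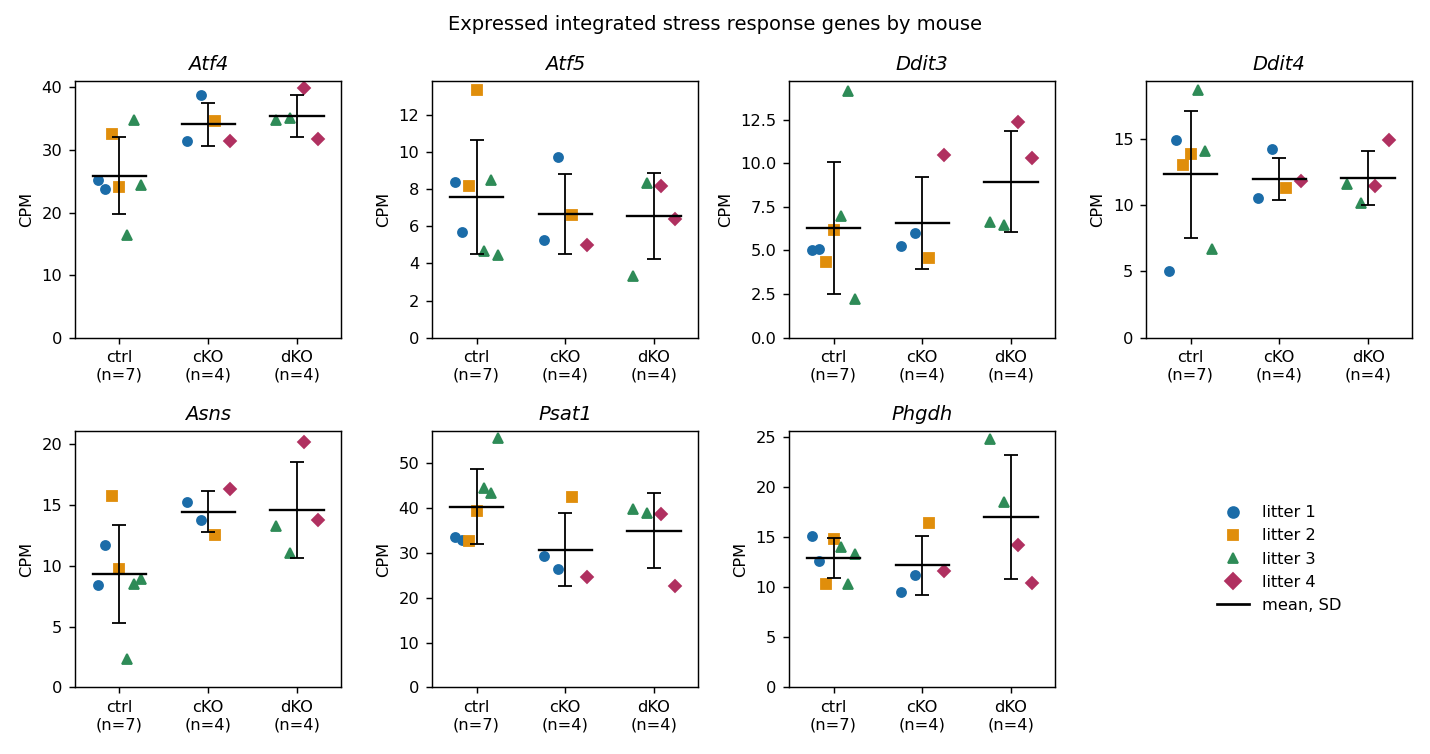
CPM (y axis, from 0) of the 7 expressed members in each mouse of the 3 groups (x axis), with symbols by litter and bars for the mean and SD. For Atf4 and Asns the mutant mice sit in the upper part of the ctrl range or above it, and for Ddit3 the 3 litter 4 mice and ctrl mouse T4 are the only mice above 10 CPM.

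*Atf4* encodes the factor at the head of the transcriptional response, and its mRNA was counted 1360 times in all. The gene lies at chr15:80255184-80257541 on the plus strand (GRCm38, GENCODE annotation, as for the positions below), with no other annotated gene overlapping it. Ctrl mice are taken in the order 2, 6, S1, S3, T3, T4, T5 here and for the other genes. In them *Atf4* was at 25.2, 23.7, 32.6, 24.1, 16.3, 34.8 and 24.5 CPM. It was at 31.5, 38.8, 34.7 and 31.4 CPM in cKO mice 5, 7, S2 and F3, and at 34.8, 35.1, 39.8 and 31.8 CPM in dKO mice T2, T8, F1 and F7. All 8 mutant mice lay above 5 of the 7 ctrl mice, and ctrl mice S1 and T4 were within the mutant range. The means were 25.9 ± 6.14 CPM in ctrl (SD, n = 7), 34.1 ± 3.48 in cKO (n = 4) and 35.4 ± 3.32 in dKO (n = 4). The log2 fold change was 0.34 ± 0.17 (SE) in cKO versus ctrl, with an unadjusted p of 0.0444 and an edgeR FDR of 0.997. It was 0.41 ± 0.19 in dKO versus ctrl, with an unadjusted p of 0.0331 and an edgeR FDR of 1. The comparisons share the ctrl mice and are not independent. Between cKO and dKO the log2 fold change was −0.04 ± 0.17, with a 95% interval from −0.36 to 0.29.

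Total count moved with the groups too. The 2 lowest totals belonged to ctrl mice T3 and T5, with 7 and 11 *Atf4* counts, and without the 3 ctrl mice of lowest total the log2 fold change in cKO versus ctrl was 0.29 ± 0.18. Across the 15 mice, Pearson's r of *Atf4* with the log total was 0.49, which is a description over mice that also differ in group. Within batch 1, with 3 cKO and 3 ctrl mice, the log2 fold change of *Atf4* was 0.55 ± 0.21. Within batch 3, with 4 dKO and 3 ctrl mice, it was 0.37 ± 0.29, and within litter 3 it was 0.38 ± 0.37. Its edgeR FDR stayed at 0.557 or more in all 22 alternatives for cKO versus ctrl and at 0.680 or more in those for dKO versus ctrl that gave an adjusted p. In bulk tissue, a difference in the share of cells that express a gene and a difference in RNA per cell cannot be told apart.

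The genes with levels most like those of *Atf4* over the 15 mice, by Pearson's r of log2 CPM among 7075 genes with a mean of at least 20 CPM, were *Brap*, *Ncoa5*, *Klf6*, *Gpr19* and *Cebpz*, with r from 0.87 down to 0.83. None of them is on the lists used here. For *Phgdh* they were *Tmem165*, *Tmem94*, *Tuba1b*, *Slc12a7* and *Parp1*, with r from 0.82 down to 0.73. These are descriptions over mice that share batches, litters and depth, with no test.

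*Asns*, asparagine synthetase, is a classic amino acid response gene and carries the element printed above. It lies at chr6:7675169-7693254 on the minus strand. Its level was 8.40, 11.7, 15.7, 9.73, 2.33, 8.47 and 8.89 CPM in the ctrl mice. In cKO it was 15.2, 13.8, 12.5 and 16.4 CPM in mice 5, 7, S2 and F3, and in dKO it was 13.3, 11.1, 20.2 and 13.8 CPM in mice T2, T8, F1 and F7. Of the 8 mutant mice, 7 lay above every ctrl mouse but S1, and dKO mouse T8 also lay below ctrl mouse 6. The lowest value, in ctrl mouse T3, came from 1 count. The log2 fold change was 0.42 ± 0.23 in cKO versus ctrl (unadjusted p 0.0623, edgeR FDR of 1) and 0.54 ± 0.29 in dKO versus ctrl (unadjusted p 0.0558, edgeR FDR of 1). It was −0.08 ± 0.23 in cKO versus dKO. With batch as a covariate the estimates were 0.59 ± 0.25 in cKO versus ctrl (unadjusted p 0.0158, edgeR FDR 0.772) and 1.09 ± 0.48 in dKO versus ctrl (unadjusted p 0.0161, edgeR FDR of 1). Batch 3 alone gave 1.08 ± 0.49 for dKO, which is nearly the same contrast, since all dKO mice were in batch 3. Both dKO estimates rest on ctrl mice T3, T4 and T5, which had 1, 9 and 4 *Asns* counts. With litter as a covariate the estimates were 0.19 ± 0.24 in cKO versus ctrl and 0.75 ± 0.57 in dKO versus ctrl, and without the litter 4 dKO mice the second was 0.20 ± 0.45. The litter fits rest on litters 1 and 2 for cKO and on litter 3 for dKO, the only litters with mice of both groups.

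The other members with a role in stress-linked arrest or death were *Ddit3*, *Ddit4* and *Atf5*. *Ddit3* encodes CHOP, the factor tied to cell death under lasting endoplasmic reticulum stress. It was at 5.04, 5.07, 4.34, 6.15, 7.00, 14.1 and 2.22 CPM in the ctrl mice. It was at 5.28, 6.00, 4.55 and 10.5 CPM in cKO mice 5, 7, S2 and F3, and at 6.63, 6.47, 12.4 and 10.3 CPM in dKO mice T2, T8, F1 and F7. The values above 10 CPM were those of the 3 litter 4 mice, of both mutant genotypes, and of ctrl mouse T4, and the other cKO and dKO mice lay inside the range of the remaining ctrl mice. The log2 fold change was 0.02 ± 0.35 in cKO versus ctrl, 0.62 ± 0.36 in dKO versus ctrl and −0.58 ± 0.33 in cKO versus dKO, with unadjusted p of 0.944, 0.0763 and 0.0729 and an edgeR FDR of 1 in each. Without the litter 4 dKO mice the dKO versus ctrl value was 0.05 ± 0.59, and in litter 3 alone it was −0.43 ± 0.72. It was larger without heterozygous ctrl mice, at 0.89 ± 0.35, and without ctrl mouse T4, at 0.96. The cKO versus dKO value was −0.93 without cKO mouse F3 and −0.41 without dKO mouse F1. None of these fits passed the FDR threshold. Litter and genotype cannot be told apart for the litter 4 mice against ctrl.

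*Ddit3* (chr10:127290774-127296288, plus strand) overlaps *Mars* and *Gm4189* on the other strand, and whether the counting used strand is not given in the sources used here, so reads of the overlap could be split or lost. *Ddit4* (chr10:59949669-59951834, minus strand) encodes REDD1, an inhibitor of mTORC1 that also answers hypoxia and glucocorticoids. Its level was 12.3 ± 4.79 CPM in ctrl (SD, n = 7; lowest 5.04 in mouse 2, median 13.8, highest 18.7 in mouse T3). It was 10.6, 14.3, 11.3 and 11.8 CPM in cKO mice 5, 7, S2 and F3, and 11.6, 10.2, 11.5 and 14.9 CPM in dKO mice T2, T8, F1 and F7. All mutant values lay inside the ctrl range. The log2 fold changes of *Ddit4* were −0.15 ± 0.22, −0.05 ± 0.26 and −0.08 ± 0.23 in the 3 comparisons.

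*Atf5* encodes a factor that, like ATF4, is translated more when eIF2 is phosphorylated, and it is also known in neural progenitors. Its mean level was 7.59 ± 3.07 CPM for ctrl (SD, n = 7), with mice from 4.45 to 13.3 CPM. For cKO it was 6.66 ± 2.18 CPM (n = 4; 5.00 to 9.75) and for dKO 6.55 ± 2.32 CPM (n = 4; 3.32 to 8.32). The log2 fold changes were −0.31 ± 0.30, −0.22 ± 0.35 and −0.06 ± 0.31, with unadjusted p from 0.302 to 0.840 and an edgeR FDR of 1. The highest value was in ctrl mouse S3, and without this mouse the cKO versus ctrl estimate was −0.06. *Atf5* (chr7:44812256-44816658, minus strand) overlaps *Il4i1* and *Nup62*, so its counts carry the same doubt as those of *Ddit3*.

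*Phgdh* and *Psat1* encode consecutive enzymes of serine synthesis, with *Phgdh* at the committed step, and radial glia are known to express the pathway. *Psat1* was at 33.6, 32.9, 32.6, 39.4, 44.4, 43.3 and 55.6 CPM in the ctrl mice. It was at 29.3, 26.5, 42.5 and 24.5 CPM in cKO mice 5, 7, S2 and F3, and at 39.8, 38.8, 38.6 and 22.5 CPM in dKO mice T2, T8, F1 and F7. Of the cKO mice, 3 lay below every ctrl mouse and S2 lay among the ctrl mice, as did all dKO mice but F7. The log2 fold change was −0.33 ± 0.19 in cKO versus ctrl (unadjusted p 0.0799, edgeR FDR of 1), −0.20 ± 0.21 in dKO versus ctrl and −0.11 ± 0.24 in cKO versus dKO. Without cKO mouse S2 the first was −0.52 (edgeR FDR 0.181), and in a fit with a litter term it was −0.02 ± 0.17. Only litters 1 and 2 hold both cKO and ctrl mice, so the litter fit sets aside cKO mouse F3 and ctrl mice T3, T4 and T5. The ctrl mice of litter 3 had the 3 highest *Psat1* values of all mice, 43.3 to 55.6 CPM. *Psat1* (chr19:15904678-15947337, minus strand) contains the pseudogene *Gm3329* on the other strand, and its reads may be shared with it.

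*Phgdh* (chr3:98313170-98339990, minus strand) was at 15.1, 12.7, 10.3, 14.9, 14.0, 10.4 and 13.3 CPM in the ctrl mice. It was at 9.55, 11.3, 16.4 and 11.6 CPM in cKO mice 5, 7, S2 and F3, and at 24.9, 18.5, 14.2 and 10.5 CPM in dKO mice T2, T8, F1 and F7. The litter 3 dKO mice T2 and T8 had the highest values of all 15 mice, from 15 and 20 counts, and the litter 4 dKO mice lay inside the ctrl range. The log2 fold change was −0.05 ± 0.23 in cKO versus ctrl, 0.24 ± 0.27 in dKO versus ctrl and −0.27 ± 0.27 in cKO versus dKO (edgeR FDR of 1 in each). Without the litter 4 dKO mice it was 0.73 ± 0.36 in dKO versus ctrl (edgeR FDR of 1), and within litter 3 it was 0.82 ± 0.51. The summed level of the 9 radial glia markers, of which 8 were detected, was 425 to 696 CPM in ctrl, 451 to 577 CPM in cKO and 467 to 642 CPM in dKO, with 0 called. In cKO versus ctrl, 4 of the 8 were lower at an unadjusted p below 0.05. The median log2 fold change of the 8 was −0.33, beside −0.33 for *Psat1* and −0.05 for *Phgdh*. The part of these markers in the *Phgdh* and *Psat1* values was not tested.

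The remaining members were near the floor. *Chac1* (chr2:119351229-119354381, plus strand) encodes a glutathione-degrading enzyme that is among the most strongly induced ATF4 targets in cultured cells. It had 0, 1, 1, 0, 0, 1 and 0 counts in the ctrl mice. It had 1, 2, 13 and 5 counts in cKO mice 5, 7, S2 and F3, and 0, 0, 3 and 8 counts in dKO mice T2, T8, F1 and F7. The mice with 3 or more counts were all mutant, and they were also among the mice with higher totals. Pooled over mice, 21 counts in cKO and 3 in ctrl gave a ratio per total count of 2.84 (exact 95% interval 0.849 to 14.9), and 11 in dKO gave a ratio to ctrl of 3.30 (0.872 to 18.4). The cKO to dKO ratio was 0.862 (0.397 to 1.98). These intervals cover counting error only and leave out the spread between mice. Of the 21 cKO counts 13 came from mouse S2, and without it the cKO to ctrl ratio was 1.74 (0.419 to 10.2). Of the 11 dKO counts 8 came from mouse F7, and without it the dKO to ctrl ratio was 1.85 (0.248 to 13.8). The cKO to dKO ratio was 0.528 without S2 and 1.53 without F7. Of the 11 dKO counts, 0 came from the litter 3 mice.

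*Atf3* (chr1:191170296-191218039, minus strand), an early stress factor that ATF4 and p53 can both induce, had 0 to 3 counts in each ctrl mouse, 6, 1, 5 and 0 counts in cKO mice 5, 7, S2 and F3, and 0, 2, 3 and 1 counts in dKO mice T2, T8, F1 and F7. Pooled counts were 8 in ctrl, 12 in cKO and 6 in dKO, which gave a cKO to ctrl ratio of 0.610 (exact 95% interval 0.229 to 1.72) and a dKO to ctrl ratio of 0.675 (0.193 to 2.22). Without cKO mouse 5 the first was 0.395 (0.113 to 1.298), and without dKO mouse F7 the second was 1.16 (0.298 to 4.02). *Trib3* (chr2:152337422-152344032, minus strand), a pseudokinase that restrains ATF4 and CHOP in a feedback loop, had 1 count in ctrl (mouse T4), 4 in cKO (3 of them in F3) and 3 in dKO. Its cKO to ctrl ratio was 1.63 (exact 95% interval 0.161 to 80.0), which at this depth leaves almost any change possible, and without mouse F3 it was 0.517 (0.00658 to 40.6). *Atf3* also overlaps *Gm24748*, a short RNA gene on the other strand.

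**Figure D3:**
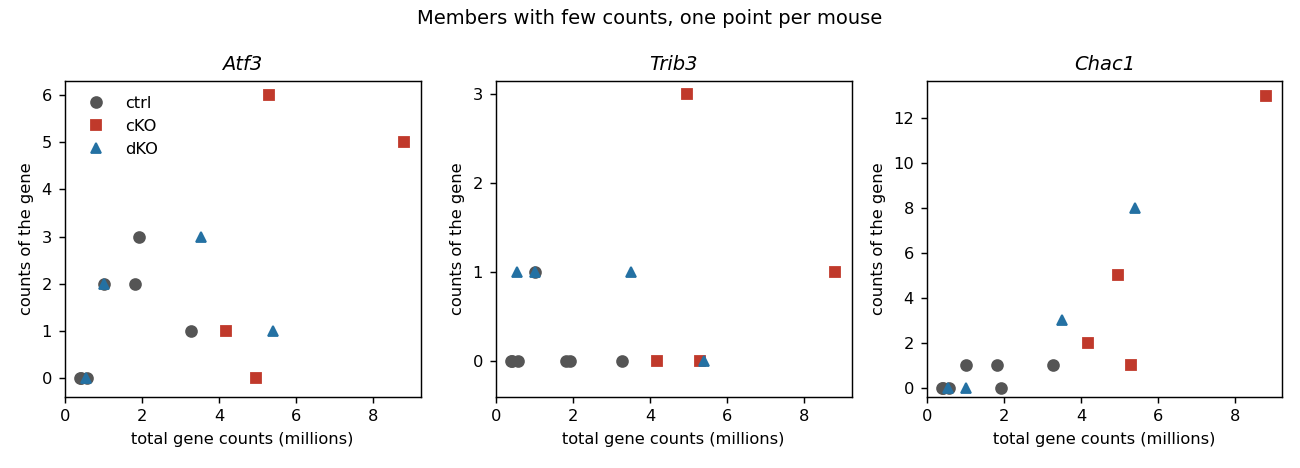
Counts (y axis) of Atf3, Trib3 and Chac1 in each mouse against the total gene counts of the mouse (x axis), with symbols by group; points can lie on each other near 0. Counts of 5 or more occur only in mice with totals of at least 4178461, all of them cKO or dKO.

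Other genes of the pathway and of neighbouring stress pathways were read from 10 further lists with 118 genes, of which 117 had a count. The edgeR test called 0 of them in each comparison. At an unadjusted p below 0.05 there were 8 in cKO versus ctrl (6 higher), 9 in dKO versus ctrl (8 higher) and 10 in cKO versus dKO (7 lower), which is 6.84%, 7.69% and 8.55% of the 117. The shares of all genes with a count were 9.47%, 6.72% and 8.22%. Among the 87 list genes with a mean of at least 5 CPM, the median log2 fold change was −0.01, 0.08 and −0.02 in the 3 comparisons, and over all such genes it was 0.04, 0.02 and 0.05.

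Upstream of ATF4, the list of eIF2 kinases, eIF2 phosphatase subunits and linked genes such as *Impact* and *Nck1* had 0 of 9 genes called. *Eif2ak4* (GCN2, which senses uncharged tRNA) had a log2 fold change of −0.35 ± 0.15 in dKO versus ctrl, with an unadjusted p of 0.0183, an edgeR FDR of 1 and groups that did not overlap. Of the 8 eIF2 and eIF2B subunits, 0 were called. *Eif2s1*, the phosphorylated subunit itself, had a log2 fold change of 0.36 ± 0.18 in dKO versus ctrl and −0.38 ± 0.16 in cKO versus dKO (edgeR FDR of 1 and 0.978). The exchange factor subunit *Eif2b4* had 0.75 ± 0.39 in dKO versus ctrl. Its estimate there was 2.20 ± 0.74 with batch as a covariate (unadjusted p 0.000444, edgeR FDR 0.362), 2.18 ± 0.75 in batch 3 alone and −0.14 ± 0.61 without the litter 4 dKO mice. All dKO mice were in batch 3, so the batch covariate and batch 3 alone both set them against ctrl mice T3, T4 and T5.

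Downstream, amino acid genes beyond the members gave 0 calls in 3 lists. In the serine, glycine and one-carbon list of 13 genes, *Aldh1l2*, a mitochondrial folate enzyme, came nearest to the threshold. It was at 44.0 to 57.9 CPM in ctrl (median 51.1), 55.1 to 83.4 CPM in cKO and 39.7 to 73.0 CPM in dKO. Its log2 fold change in cKO versus ctrl was 0.49 ± 0.15, with an unadjusted p of 0.001 and an edgeR FDR of 0.216. It passed in 1 of 22 alternatives, without cKO mouse S2, at 0.61 and an edgeR FDR of 0.00399. With litter as a covariate, a fit that rests on litters 1 and 2, the only ones with both groups, it was 0.34 ± 0.15. The log2 fold change of *Aldh1l2* in batch 1 alone was 0.35 ± 0.19, and each of these fits gave an edgeR FDR of 1. *Mthfd2*, its partner in mitochondrial folate metabolism, had 0.57 ± 0.28 in the same comparison (edgeR FDR 0.977). *Gpt2*, an alanine aminotransferase, did not overlap between cKO and dKO, with a log2 fold change of −0.47 ± 0.16 and an edgeR FDR of 0.570.

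Of the 10 amino acid transporters, *Slc1a4* had a log2 fold change of 0.47 ± 0.19 and the glycine transporter *Slc6a9* one of 0.66 ± 0.33 in dKO versus ctrl, both with an edgeR FDR of 1. In cKO versus dKO they had −0.34 ± 0.17 and −0.79 ± 0.32. The median of the 8 transporters with a mean of at least 5 CPM was 0.03, 0.33 and −0.30 in the 3 comparisons. Of 12 aminoacyl-tRNA synthetases, *Aars* had −0.36 ± 0.16 in cKO versus dKO, and the medians of the list were −0.05, 0.13 and −0.11. Of the 19 other ATF4 and CHOP targets, 18 had a count, and the named ones were *Vldlr* (0.30 ± 0.15) and *Nars2* (−0.31 ± 0.15) in cKO versus ctrl and *Jdp2* (0.69 ± 0.33) in dKO versus ctrl, with edgeR FDR of 0.980 or more. *Sesn2* and *Tnfrsf10b*, which p53 is also known to induce, had log2 fold changes of 1.10 ± 0.44 and 0.96 ± 0.53 in cKO versus ctrl. In cKO versus dKO they had 1.18 ± 0.48 and 1.68 ± 0.64. Their edgeR FDR was 0.564 or more and their means lay under 5 CPM. They were picked out after their values were seen, so they do not stand for the p53-linked genes of this list. The list also holds *Bbc3*, which the study found higher in cKO by ddRT-PCR and which is not described here.

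Stress pathways outside the integrated stress response gave 0 calls as well. In the unfolded protein response list of 17 genes, *Calr*, an endoplasmic reticulum chaperone, had a log2 fold change of −0.24 ± 0.11 in cKO versus ctrl (edgeR FDR 0.876). In the heat shock list of 11 genes, *Hsp90aa1*, the inducible cytosolic HSP90, was at 71.1 to 137 CPM in ctrl (median 84.8), 94.0 to 231 CPM in cKO and 109 to 203 CPM in dKO. Its log2 fold change in dKO versus ctrl was 0.65 ± 0.19, with an unadjusted p of 0.0004 and an edgeR FDR of 0.351. The quasi-likelihood test gave it an FDR of 0.000191, the likelihood ratio test without dKO mouse T8 one of 0.0266, and without the litter 4 dKO mice the log2 fold change was 0.14 ± 0.22. *Hspe1*, a mitochondrial chaperonin, had 0.82 ± 0.32 in dKO versus ctrl, with an unadjusted p of 0.00725 by the likelihood ratio test, and did not pass. Its value was 1.09 without dKO mouse T8 and −0.51 without the litter 4 dKO mice. It passed in 1 of 22 alternatives, at an edgeR FDR of 0.0365. Of the 10 NRF2 genes, 0 had an unadjusted p below 0.05, and of the 9 immediate early genes only *Fos* did, with at most 6 counts in any mouse. The genes that the naming rule took from these lists beyond those above had unadjusted p from 0.0545 to 0.765.

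Against this stood the p53 list, which was drawn up for this report and takes in genes that the study found higher in these same cKO mice. Its direction is therefore not independent evidence. Of its 14 genes, 6 rose in cKO versus ctrl, 0 were called in dKO versus ctrl, where 2 had an unadjusted p below 0.05, and 5 were higher in cKO than in dKO. *Cdkn1a*, the p21 cell cycle inhibitor, had a log2 fold change of 1.70 ± 0.38 in cKO versus ctrl and 2.01 ± 0.40 in cKO versus dKO. *Eda2r* had 2.69 ± 0.43 and 3.25 ± 0.49, *Ano3* 2.06 ± 0.20 and 1.45 ± 0.19, *Pvt1* 1.135 ± 0.16 and 0.91 ± 0.17, and *Ccng1* 0.86 ± 0.22 and 1.31 ± 0.22. *Plk2* had 0.68 ± 0.17 in cKO versus ctrl. Of the 22 alternatives for cKO versus ctrl, *Eda2r*, *Ano3* and *Pvt1* kept their call in 22, *Cdkn1a* in 21, *Ccng1* in 10 and *Plk2* in 7. Of the 18 for cKO versus dKO, *Eda2r* and *Ano3* kept it in 16, *Ccng1* in 15, and *Cdkn1a* and *Pvt1* in 13. Of these 18, the fits with batch or litter as a covariate and in batch 3 alone rest on 1 cKO mouse, F3. No other cKO mouse shares a batch or litter with dKO mice, so these fits cannot tell whether batch or litter matters. No test set this list against the members.

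**Figure D4:**
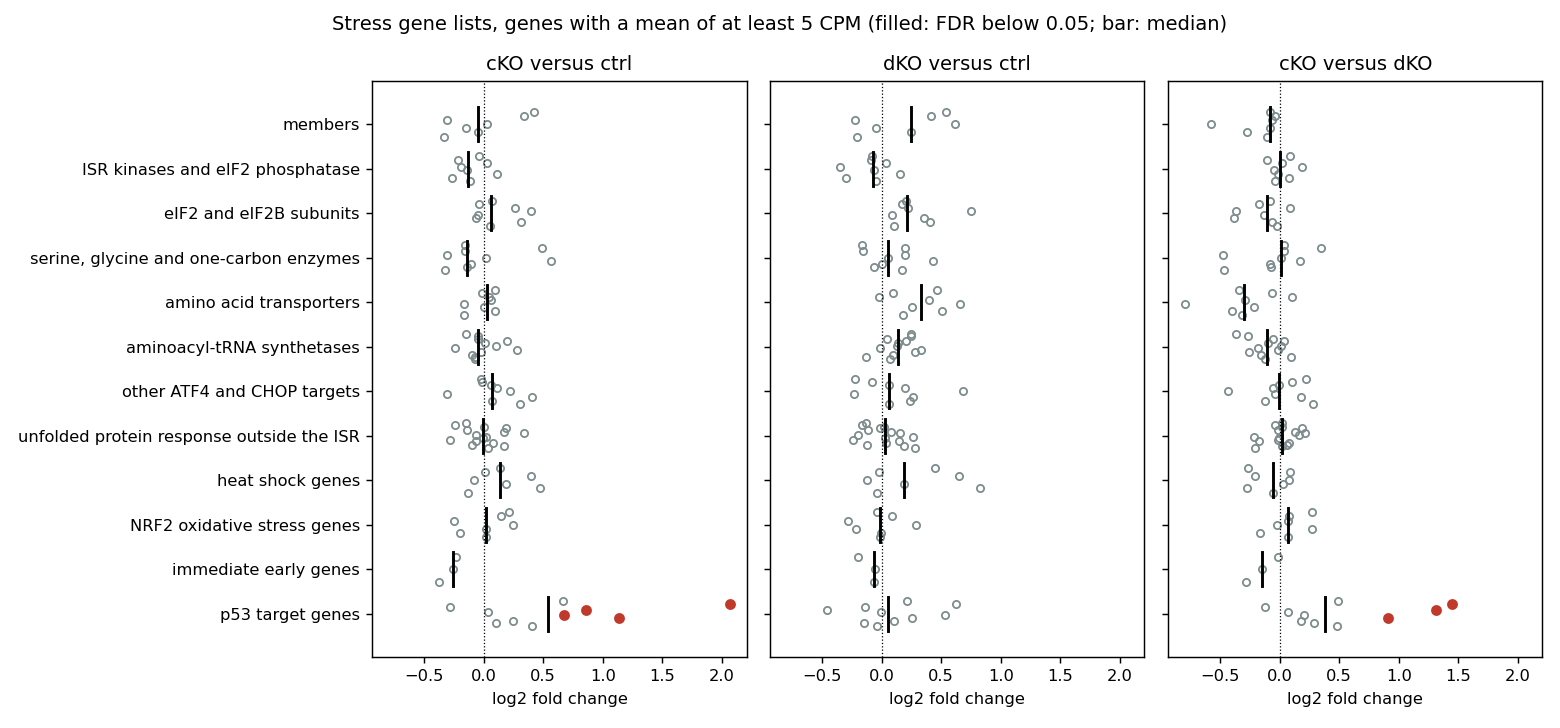
Log2 fold change (x axis, same scale in the 3 panels) of genes with a mean of at least 5 CPM, by list (y axis), with filled red points for an edgeR FDR below 0.05 and bars for the median of each list. Filled points appear in the p53 list in the 2 comparisons of cKO; Cdkn1a and Eda2r, with means under 5 CPM, are not drawn.

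The RNA of some cell type markers differed between the groups as well. The 6 intermediate progenitor markers, of which *Neurod1* was at 0, summed to 133 to 186 CPM in ctrl, 64.8 to 133 CPM in cKO and 88.7 to 152 CPM in dKO, and *Eomes* and *Neurog2* fell in cKO versus ctrl, with log2 fold changes of −1.128 ± 0.18 and −1.19 ± 0.25. *Emx1* and *Lhx2* of the 6 cortex markers also fell, with the list at 359 to 599.8 CPM in ctrl, 371 to 453 CPM in cKO and 383 to 481 CPM in dKO. The 8 interneuron markers summed to 404 to 859 CPM in ctrl, 761 to 927 CPM in cKO and 564 to 816 CPM in dKO, with *Gad1* called. The 9 microglia markers used summed to 7.602 to 28.9 CPM in ctrl, 14.2 to 28.2 CPM in cKO and 11.1 to 24.9 CPM in dKO, with 0 called by edgeR and 2, 2 and 1 at an unadjusted p below 0.05 in the 3 comparisons. The 6 choroid plexus markers summed to 3.36 to 66.7 CPM in ctrl, 2.95 to 4.00 CPM in cKO and 3.10 to 36.5 CPM in dKO, with *Ttr* called lower in cKO. The 7 endothelial markers summed to 65.6 to 121, 74.3 to 94.5 and 81.2 to 172 CPM, with *Slco1a4* at 0 in cKO and called. The 7 meningeal markers summed to 1.63 to 107, 2.96 to 9.32 and 0 to 102 CPM, with *Aldh1a2* called lower in cKO, and the 7 red blood cell markers to 9.41 to 28.6, 17.7 to 33.0 and 24.9 to 31.4 CPM, with *Hba-a2* called in dKO versus ctrl. The 8 excitatory neuron markers summed to 1628 to 2007, 1812 to 2301 and 1628 to 2173 CPM. Over the 21 or 22 alternatives, the calls in cKO versus ctrl held in 22 for *Eomes*, 17 for *Neurog2*, 11 for *Emx1*, 12 for *Lhx2*, 8 for *Gad1*, 15 for *Slco1a4*, 7 for *Aldh1a2* and 16 for *Ttr*, and the call of *Hba-a2* in dKO versus ctrl held in 10. The part of these shifts in the levels of the members was not tested.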

How the data were processed

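RNA of whole E15.5 cerebral cortex from 15 mice was sequenced as UMI ClickSeq libraries. Per the submitters' processing notes, bcl2fastq 2.17, UMI-tools 0.5.3, cutadapt 1.13, STAR 2.5.2a, HTSeq 0.6.1p1 and edgeR 3.18.1 were used with mm10. The authors deposited raw counts per gene for each library. The annotation release and strand setting are not given in the sources used here. The summary lines for reads not assigned to a gene, 21.6% to 38.7% of reads in a library, were left out. Of all reads, 14.2% to 29.3% did not align uniquely, 5.00% to 10.9% lay in no annotated gene and 1.46% to 1.99% were ambiguous between genes. The 2 libraries of mouse S2 were summed. Ensembl IDs were named with GENCODE vM21 (51719 of 51912 matched), and promoter windows and their sequences came from RefSeq.

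Each pair of groups was fitted alone in edgeR 4.0.16 (R 4.3.3) with TMM factors, estimateDisp and the likelihood ratio test, without covariates, and p-values were Benjamini-Hochberg adjusted over 51912 genes, with calls at an FDR below 0.05. Intervals are 95% and use the standard error of the fit. DESeq2 1.42.0, the quasi-likelihood test, other scalings and filters, batch and litter settings and leaving out each mouse were alternatives. Code was tested on simulated data. The members and lists were chosen with earlier results of these data known. Named genes were the 10 members, *Knl1* and *Trp53*, every called gene of a list and, per list and comparison, the 2 with the smallest p among those with a mean of at least 5 CPM; those with an unadjusted p below 0.05 are described. Of the marker lists, genes at 0 or called were named (1 marker is not reported here), and the 5 genes most like *Atf4* and *Phgdh* were taken from genes outside the lists with a mean of at least 20 CPM.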

Additional observations from a re-analysis of the deposited data

Results flagged for a closer look

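Of 36 groups of members, *Knl1* and *Trp53* in which the highest and the lowest mouse were examined for standing apart, 5 had such a mouse. Chance gives about 1 in 20 groups if values are normally distributed. That rate does not hold for genes with 0 or few counts per mouse, such as *Trib3*. *Ddit3* was at 14.1 CPM in ctrl mouse T4, and the next ctrl mouse was at 7.00 CPM. *Trib3* was at 0.941 CPM in the same ctrl mouse, from 1 count, with 0 in the others. In cKO mouse F3 *Trib3* was at 0.682 CPM, from 3 counts, and the next was at 0.114 CPM. *Psat1* was at 22.5 CPM in dKO mouse F7, and the next dKO mouse was at 38.6 CPM. *Knl1* was at 80.4 CPM in cKO mouse S2, and the other cKO mice reached at most 51.8 CPM.

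The difference between the mutant genotypes, which share the loss of *Knl1*, passed the edgeR test (FDR below 0.05) for 6 genes of the lists, none of them a member. The log2 fold change in cKO versus dKO was 2.01 for *Cdkn1a*, 1.31 for *Ccng1*, 3.25 for *Eda2r*, 1.45 for *Ano3* and 0.91 for *Pvt1*, all of the p53 list. It was −5.02 for *Ttr*, a choroid plexus marker. With batch or litter as a covariate, and in batch 3 alone, this comparison rests on 1 cKO mouse, F3, so calls in those fits are not given. The call of *Ttr* held in 13 of 17 alternatives.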

How the results depend on the processing

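In all 62 alternatives 0 members passed an FDR of 0.05 among those that were tested, and 0 to 2, 0 to 3 and 0 to 1 members had an unadjusted p below 0.05 in the comparisons of cKO with ctrl, dKO with ctrl, and the mutants with each other. Not all 10 were tested in each: filterByExpr kept 7, 5 and 7 members in these comparisons, and DESeq2 gave an adjusted p for 7, 0 and 10. The groups share no replicate numbers, and the blocked fits are those with litter as a covariate. Against ctrl these rest on litters 1 and 2 for cKO and on litter 3 for dKO, the only litters with mice of both groups. The alternatives without low-count ctrl mice and without litter 4 dKO mice against ctrl, and the ratios of pooled counts with 1 mouse left out, were chosen after seeing the data. Depth limits *Atf3*, *Trib3* and *Chac1*, which had 26, 8 and 35 counts over the 15 mice, and the causes of the differences below were not tested.

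The number of genes called over the whole table moved more. In cKO versus ctrl it was 83 (30 higher, 53 lower). It was 352 with the quasi-likelihood test, 137 with DESeq2, 138 with filterByExpr, 49 with all 3 groups in 1 fit, 13 in batch 1 alone, 16 without heterozygous ctrl mice, 52 without the 3 ctrl mice of lowest total, and 17 (without cKO mouse 5) to 373 (without S2) when 1 mouse was left out. RLE scaling gave 96 calls (23 higher, 73 lower). In dKO versus ctrl 26 genes were called, against 113 with the quasi-likelihood test, 9 with DESeq2, 14 with filterByExpr, 14 with all groups, 17 with batch and 4 with litter as a covariate, 3 in litter 3 alone, 17 without heterozygous ctrl mice, 0 without litter 4 dKO mice (1022 at an unadjusted p below 0.05), and 17 to 59 with 1 mouse left out. In cKO versus dKO 27 were called, against 184 with the quasi-likelihood test, 7 with DESeq2, 14 with filterByExpr and 14 with all groups. There were 58 without litter 4 dKO mice, and 6 to 179 with 1 mouse left out. Fits of cKO versus dKO with batch or litter as a covariate, or in batch 3 alone, rest on 1 cKO mouse, F3, and their counts are not given.

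Signs turned for the following log2 fold changes, none of which had passed the test. In cKO versus ctrl, *Ddit3* (0.02) was −0.021 with DESeq2, −0.016 with RLE, −0.022 with filterByExpr, −0.0029 with batch and −0.029 with litter as a covariate, −0.064 in batch 1 alone and −0.063 without the 3 ctrl mice of lowest total. *Trib3* was −0.39 with DESeq2, *Phgdh* 0.029 without the 3 ctrl mice of lowest total, and *Knl1* 0.12 with litter as a covariate and 0.11 in batch 1 alone. In dKO versus ctrl with batch as a covariate, *Atf5* was 0.10, *Trib3* −0.23 and *Trp53* 0.073, and in batch 3 alone they were 0.089, −0.27 and 0.064. With litter as a covariate, *Atf3* was 0.23, *Ddit3* −0.50, *Chac1* −3.00, *Trp53* 0.35 and *Hspe1* −0.40. In litter 3 alone these were 0.22, −0.43, −1.94, 0.36 and −0.39. Without litter 4 dKO mice, *Atf3* was 0.38, *Chac1* −2.05, *Psat1* 0.035, *Eif2b4* −0.14 and *Hspe1* −0.51. The *Chac1* values with the litter covariate, in litter 3 alone and without litter 4 have no SE. They rest on dKO mice T2 and T8, which had 0 *Chac1* counts, so their size and sign carry little. In cKO versus dKO with batch as a covariate, *Ddit3* was 0.083, *Asns* 0.11, *Trib3* 0.86 and *Chac1* 0.30, and in batch 3 alone they were 0.11, 0.12, 0.78 and 0.32. *Trib3* was 2.23 with litter as a covariate. Without litter 4 dKO mice, *Atf5* was 0.046, *Ddit4* 0.15, *Asns* 0.26, *Chac1* 4.86 and *Trp53* −0.052. That *Chac1* value too rests on dKO mice T2 and T8, with 0 counts.

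With 1 mouse left out, the range crossed 0 in cKO versus ctrl for *Ddit3* (−0.28 to 0.33), *Trib3* (−0.64 to 2.47) and *Phgdh* (−0.25 to 0.062). In dKO versus ctrl it did for *Atf3* (−0.82 to 0.23), *Atf5* (−0.35 to 0.025), *Ddit4* (−0.21 to 0.020) and *Psat1* (−0.32 to 0.030). In cKO versus dKO it did for *Atf4* (−0.12 to 0.034), *Atf3* (−1.01 to 0.22), *Atf5* (−0.27 to 0.051), *Ddit4* (−0.16 to 0.11), *Asns* (−0.16 to 0.14) and *Chac1* (−0.62 to 0.67).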
